A study of Mus musculus with 21 samples.

Results

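Venous endothelial cells and other endothelial cells that transcribe Vwf were taken from unchallenged mouse lung and from lung metastases of malignant melanoma (MM) by a rule on single-cell counts. A cell was a member where it held at least 1 unique molecular identifier (UMI, 1 captured RNA molecule) of Vwf or Slc6a2, UMIs of at least 2 of 6 supporting genes (Prss23, Lrg1, Emcn, Igfbp3, Mmrn2, Pecam1), and none of Car4, Ednrb, Ptprc or Col1a2. This found 1350 of the 45034 cells of both tissues, out of 100359 cells in the series after identical libraries were counted once. Of the members, 787 were positive for Vwf alone, 27 for Slc6a2 alone and 536 for both.

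Blood leaves the capillary bed of the lung through venules and veins, whose endothelium is specified by the nuclear receptor Nr2f2 and is a site where leukocytes adhere. Vwf encodes von Willebrand factor, a glycoprotein that is stored with P-selectin in Weibel-Palade bodies and tethers platelets. In the lung it is made by endothelium of arteries and veins and little by the capillaries, which consist of general capillary cells (Gpihbp1, Kit) and gas-exchanging aerocytes (Car4, Ednrb). Slc6a2 encodes the noradrenaline transporter, which in the lung is carried by endothelial cells that clear noradrenaline from blood.

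The tumor hosts were male and female mT/mG mice. The paper does not state strain and sex apart for the mice of unchallenged lung. The mT/mG line carries a ubiquitous membrane tdTomato reporter in the ROSA locus that a Cre recombinase would switch to EGFP. The mice carried no Cre transgene, so tdTomato marks every host cell type alike. For the metastasis tumor microenvironment (TME), fragments of unlabeled MT-ret melanoma were transplanted under the skin of adult mice, the primary tumor was resected and the lung metastases that grew later were taken, with some adjacent lung tissue. Unchallenged lung came from mice without a tumor. Living tdTomato+ cells, or tdTomato+ CD45- cells, were sorted and measured by 10x 3' sequencing, and no source used here says which gate each library had.

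The labels list 4 samples of lung and 6 of the metastasis TME. Metastasis replicates 7 and 8 hold the same cells and counts as replicates 5 and 6 and were counted once under the lower number, which left 4 libraries in each tissue. The cells of these 2 libraries are thus deposited under 2 mouse numbers each, so their animal of origin is uncertain. Metastasis replicates 1-3 are 1 sample in the labels, summed here from 2 library names with different mouse numbers, and each other library has 1 mouse number. The metastasis libraries held 785 (replicates 1-3), 661 (replicate 4), 5166 (replicate 5) and 1036 cells (replicate 6), and 14, 42, 217 and 42 members. The lung libraries held 1326 (replicate 1), 4085 (replicate 4), 6009 (replicate 5) and 25966 cells (replicate 6), and 179, 315, 372 and 169 members. Summed over its members, a library gave 39971 to 641832 UMIs in the metastasis TME and 348806 to 1487438 in lung, and the median member held 1527 (lung replicate 6) to 4739.5 UMIs (metastasis replicate 4). Of 44862 barcode sequences, 172 occurred in at least 2 libraries. The name of lung replicate 1 in the table says replicate 2, and metastasis replicate 6 holds the same cells as a library named as MM cells, so results are also given without each library.

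The label of the cells was checked against genes that the rule did not use. UMIs of at least 2 of 13 further pan-endothelial genes were present in 98.0% of members, and no member held UMIs of 2 of the lymphatic genes Prox1, Mmrn1, Reln, Ccl21a and Pdpn. Lyve1, which the lymphatic list also holds, was common in members, with 60.1% after the thinning described next, against 37.5% of general capillary cells and 23.3% of aerocytes. The list has 9 genes, and Flt4, Fgl2 and Maf of it were not in this check either. In the members of lung replicate 5 they had 66, 361 and 7 UMIs. To compare classes at 1 depth, each cell was thinned to 1000 UMIs, which left out 28 of the 1350 members, 15 of them from lung replicate 6. At this depth Nr2f2 was detected in 14.9% of members, against 1.54% of general capillary cells and 1.66% of aerocytes. Amigo2, another vein gene, was detected in 10.1%, 0.586% and 1.09% of the same classes. The adhesion molecule Vcam1 was detected in 14.0% of members against 0.659% and 0.457%, and P-selectin (Selp) in 3.10% against 0.0733% and 0.172%. Ackr1, a chemokine receptor of venules, was rare at 0.605% of members and was not seen in the capillary classes. Because the classes were chosen on counts of these same cells, these shares are a description and were not tested.

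Markers of arteries and of capillaries were also present. Efnb2, an arterial ephrin that lung capillaries also express, was detected in 19.6% of thinned members and 29.8% of general capillary cells. Gpihbp1, which anchors lipoprotein lipase on capillary endothelium, was detected in 46.2% of members and Kit in 24.5%. General capillary cells were chosen by having 1 of these genes, so their own shares are set by that choice. Before thinning, 627 members held a UMI of Slc6a2, Amigo2 or Bst1 and none of the arterial genes Gja5, Bmx and Dkk2. In 80 members only the latter set was seen, in 51 both sets and in 592 neither, and Slc6a2 is also a gene of the rule. In the members of lung replicate 5, Slc6a2, Amigo2 and Bst1 had 1491, 205 and 177 UMIs. Gja5, Bmx and Dkk2 had 113, 121 and 40 there. Of the listed arterial genes not in the set, Mgp had 1866, Cxcl12 482 and Gja4 220, and Htra1 65 and Unc5b 13. The numbers of cells thus depend on the genes taken and do not measure how many members are venous or arterial. The members are therefore called here venous and Vwf endothelial cells, and not venous cells.

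Cells near the edge of the rule were shallower. There were 528 cells with Vwf or Slc6a2 and only 1 supporting gene, with a median of 1745.5 UMIs, and 84.7% of them held at least 2 further pan-endothelial genes. The 565 members with exactly 2 supporting genes had a median of 2439 UMIs, and the share was 95.8%. The exclusion genes removed 1323 cells that met the rest of the rule, 833 of them with a Ptprc UMI, 464 with Car4, 296 with Ednrb and 119 with Col1a2.

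Slc6a2 divided the members. In the 7 libraries with at least 10 cells on each side, members with a Vwf UMI were summed apart with and without a UMI of Slc6a2, and the log2 ratio of CPM (counts per 1000000 summed UMIs) plus 10 was taken inside each library. Of 3839 genes with a mean of at least 50 CPM, 164 were higher with Slc6a2 in all 7 libraries and 194 were lower in all 7. This split follows the counts of the same cells and was looked at after the data were seen, so the ratios are a description. Cells of this split with Slc6a2 averaged 2228 to 5101 UMIs in lung and cells without it 1991 to 4620. In the metastasis libraries used these means were 2185 to 4383 and 3325 to 5055, lower with Slc6a2 in each of the 3.

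Of 12 listed venous genes, 5 were higher with Slc6a2 in all 7 libraries, and the mean ratio was above 0 for all 12. Nr2f2 averaged 397 CPM with Slc6a2 and 74.2 CPM without, a mean log2 ratio of 2.56 (SD 1.10, n = 7 libraries). Amigo2 had a ratio of 2.70 (297 against 38.8 CPM), and Bst1, an ectoenzyme of venous and stromal cells, had 2.50 (220 against 33.0 CPM). Igfbp5, a secreted binding protein of insulin-like growth factors, had the largest mean ratio at 3.03, but with an SD of 2.30 across libraries. Fgl2, a prothrombinase that is also on the lymphatic list, had 2.78, the prostacyclin synthase Ptgis 1.97 and the chemokine scavenger Ackr3 1.97. Vwf itself was 4351 CPM with Slc6a2 and 1242 CPM without.

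Of 16 listed arterial genes, 10 were lower with Slc6a2 in all 7 libraries, and so were 7 of 14 general capillary genes. The mean ratio was above 0 for 3 arterial genes, the elastic fiber genes Fbln5 (1.19) and Eln (0.80) and the Notch ligand Jag1 (0.14), and for no capillary gene. The semaphorin Sema3g averaged 45.9 CPM with Slc6a2 and 412 CPM without, with a mean log2 ratio of -3.27. Efnb2 had -2.40 (SD 0.49, 81.3 against 464 CPM), the Notch ligand Dll4 -2.41, its target Hey1 -2.05 and the arterial gap junction gene Gja5 -2.21 (2.51 against 55.3 CPM). The capillary gene Kit had -2.06 and Gpihbp1 -1.23, while Plvap (-0.15), Cd93 (-0.19), Rgcc (-0.18) and Ptprb (-0.03) of the same list were near 0, as was Pecam1 of all endothelium (-0.10). The venous markers thus lay mostly in the cells with Slc6a2, and more arterial and capillary transcripts in the cells with Vwf alone.

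**Figure D1:**
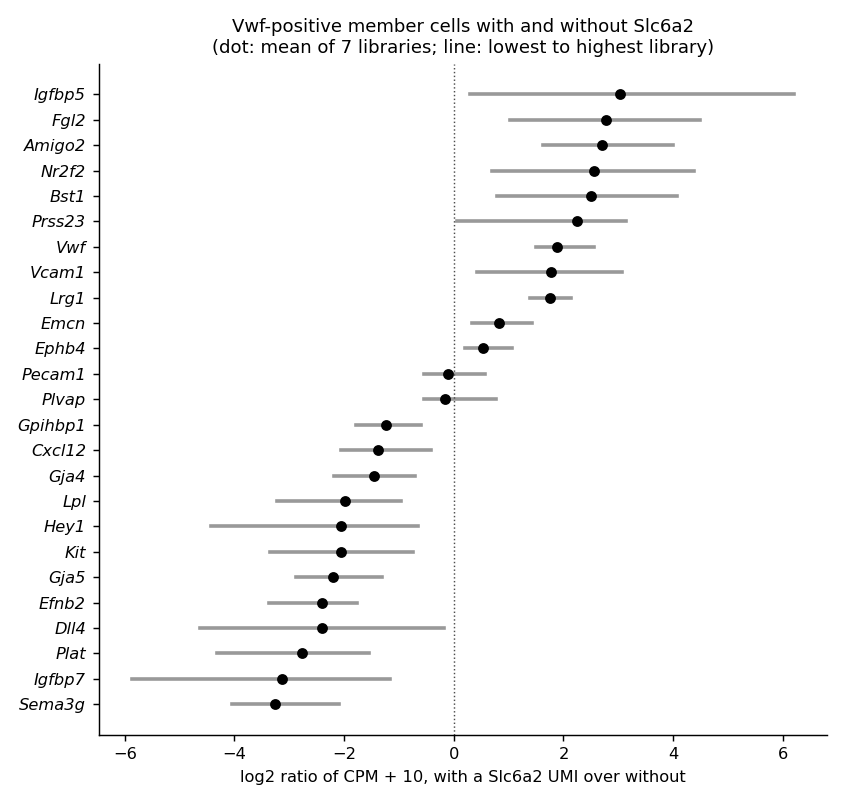
Ratio of expression in members with Slc6a2 to members without it for 25 genes. Each point is the mean over 7 libraries of the log2 ratio of CPM plus 10, and the line runs from the lowest to the highest library. Nr2f2 (2.56) and Amigo2 (2.70) lie to the right and Sema3g (-3.27) and Efnb2 (-2.40) to the left, with Pecam1 near 0.

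The share of members with Slc6a2 was 14.3%, 26.2%, 35.0% and 26.2% in metastasis replicates 1-3, 4, 5 and 6. In lung replicates 1, 4, 5 and 6 it was 44.7%, 26.0%, 54.6% and 58.0%. Pooled over cells it was 31.7% and 44.7%. The ranges of the tissues overlap, and a change in how many cells are venous cannot be told apart from a change in Slc6a2 RNA per cell in these shares.

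The share of members was taken among endothelial cells, defined by UMIs of at least 2 of Pecam1, Cdh5, Cldn5, Egfl7, Emcn and Mmrn2 and none of Ptprc or Col1a2. This class leaves out some members and they are not counted in the share, which uses 207 of 217 in metastasis replicate 5, 39 of 42 in replicate 6, 176 of 179 in lung replicate 1, 369 of 372 in replicate 5, 142 of 169 in replicate 6 and all in the others. Members made up 16.1% of these endothelial cells in metastasis replicates 1-3 (exact 95% binomial interval 9.09 to 25.5), 39.3% in replicate 4 (30.0 to 49.2), 18.7% in replicate 5 (16.4 to 21.1) and 23.2% in replicate 6 (17.1 to 30.3). The mean was 24.3% (SD 10.4, n = 4). In lung the shares were 22.6%, 24.3%, 25.3% and 10.9%, with a mean of 20.8% (SD 6.68, n = 4) and the lowest value in the shallow replicate 6. The difference is smaller than the spread within either tissue. With every cell thinned to 1000 UMIs the means were 14.4% (SD 4.89) and 11.7% (SD 3.82). With Lrg1 also left out of the rule, the thinned means were 11.1% (SD 3.16) and 10.9% (SD 3.52).

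To compare the tissues, counts were summed over the members of each library with at least 20 members, which keeps metastasis replicates 4, 5 and 6 and lung replicates 1, 4, 5 and 6, and fitted with the quasi-likelihood test of edgeR. In all that follows, values are given in that order. Of 8139 genes tested, 17 passed an adjusted p of 0.05 (0.209%), 16 higher in the metastasis TME (0.197%) and 1 lower (0.0123%). DESeq2 called 80 genes (0.983%), 58 higher (0.713%) and 22 lower (0.27%), among them all 17. These shares are of all 8139 genes, of which 1271 had no adjusted p by DESeq2. Replicates 5 and 6 of both tissues share a sequencing run by the library names, and with these 4 libraries alone 206 genes were called, all 17 included. With the run as a block, in which lung replicate 1 is the only fitted library of its run, 37 genes were called (0.455%), 33 higher (0.405%) and 4 lower (0.0491%), among them 16 of the 17. With replicates 1-3 added to that fit, 22 were called, 10 of them among the 17. The median log2 fold change over all genes was 0.03. Leaving out 1 library moved the count from 17 to between 3 and 239. It was 239 without metastasis replicate 4, 4 without replicate 5 and 3 without replicate 6, and it was 7, 7, 8 and 12 without lung replicates 1, 4, 5 and 6.

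Melanoma RNA was present in the droplets of the metastasis members. A UMI of Mlana, Pmel, Dct, Tyrp1, Tyr or Cited1 was held by 57.1%, 85.7%, 100% and 100% of members in replicates 1-3, 4, 5 and 6. In lung it was 0.773% of members. A list of 10 melanoma genes summed to 516 to 7757 CPM in their members, which was 30.0% to 60.9% of the level in the non-endothelial cells of the same library, and to 8.39 to 16.5 CPM in lung members. Among called genes, Dct, an enzyme of melanin synthesis, was 324, 5769 and 1095 CPM in metastasis members and 1.50, 0.672, 2.10 and 2.87 CPM in lung members (log2 fold change 10.59, adjusted p = 0.00253). Ptgds, which melanocytes also express, had 54.0, 746 and 341 CPM and no UMI in 3932307 UMIs of the lung members, at least 499-fold higher against 3 counts over the group. In all 3 metastasis libraries, 7 of the 17 called genes (Dct, Syt4, Ptgds, Gpnmb, Mitf, Lgals1, Mpzl1) were lower in members than in the non-endothelial cells. For Sparcl1, Mmp2, Amd1 and Metrn the order differed between libraries. Amd1 shares sequence with Amd2, so its value is uncertain.

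The other 5 called genes (Ankrd37, Peg3, Ntrk2, Col4a2, Adk) were higher in members than in the non-endothelial cells in all 3 libraries. Ankrd37, an ankyrin repeat gene known as a target of hypoxia-inducible factor, lies on chromosome 8 at 45996902 to 46005707 on the minus strand of GRCm38. It was 88.4, 103 and 95.4 CPM in metastasis members and 1.50, 2.69, 7.69 and 8.60 CPM in lung members. The libraries of the tissues do not overlap, and the 14 members of metastasis replicates 1-3, which were not fitted, had 150 CPM. The log2 fold change was 4.36 (SE 0.44, adjusted p = 0.0023 by edgeR), and the gene was called without any 1 library, with an adjusted p of at most 0.0392. The non-endothelial cells had 18.7, 17.6 and 55.2 CPM.

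Peg3, an imprinted zinc finger gene on chromosome 7 (6703892 to 6730431), was 68.8, 198 and 136 CPM in metastasis members and 18.0, 12.1, 8.39 and 5.73 CPM in lung members. Its log2 fold change was 3.71 (SE 0.44, adjusted p = 0.0054 by edgeR). Without metastasis replicate 5 or 6 the adjusted p was 0.0609 and 0.0511. The 14 members of replicates 1-3 had no Peg3 UMI.

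Ntrk2, which encodes the receptor TrkB of brain-derived neurotrophic factor, was 133, 43.6 and 55.2 CPM against 0, 10.1, 5.60 and 2.87 CPM. The log2 fold change was 3.74 (SE 0.61, adjusted p = 0.0368 by edgeR). Without metastasis replicate 5 or 6 the adjusted p was 0.123 and 0.167, and without lung replicate 5 or 6 it was 0.0829 and 0.0599. In non-endothelial cells of the metastasis libraries Ntrk2 was at most 1.8 CPM.

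Adk, the adenosine kinase that removes adenosine inside the cell, was the 1 gene that fell. It was 44.2, 42.1 and 35.1 CPM in metastasis members and 156, 157, 174 and 126 CPM in lung members, with narrow spreads among the fitted libraries. The 14 members of replicates 1-3 had 125 CPM, 5 UMIs, near the lowest lung library. The log2 fold change was -1.82 (SE 0.29, adjusted p = 0.0368 by edgeR). The adjusted p was 0.122 and 0.238 without metastasis replicates 5 and 6, and 0.0888, 0.0791 and 0.0895 without lung replicates 1, 4 and 5. With replicates 1-3 in the fit (at least 10 members per library) it was 0.103, and 0.0846 with the run as a block besides.

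**Figure D2:**
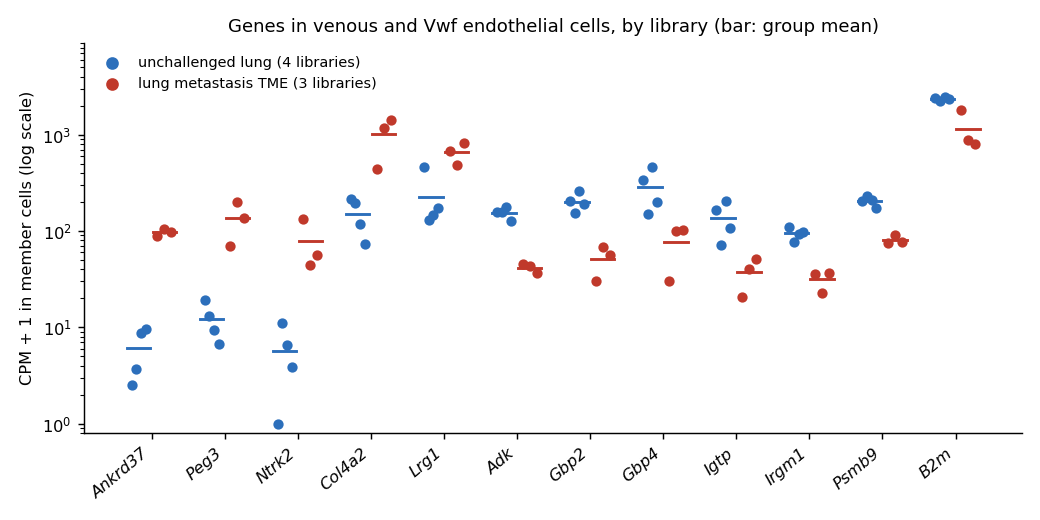
Expression of 12 genes in the summed members of each library, in CPM plus 1 on a log axis. Blue points are the 4 unchallenged lung libraries, red points metastasis replicates 4, 5 and 6, and bars the means. Ankrd37 lies at 88.4 to 103 CPM in the metastasis and at most 8.60 CPM in lung, Adk at 35.1 to 44.2 CPM against 126 to 174 CPM, and Gbp2 at 29.5 to 67.0 CPM against 154 to 257 CPM.

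The endothelial basement membrane is a sheet of type IV collagen, laminin, nidogen and perlecan that the cells lay down on their outer side. Of 22 listed genes of basement membrane and matrix 19 were tested, and 2 rose by edgeR (Col4a2 and Sparcl1), beside 0.197% of all genes. The median log2 fold change of the list was 1.40, beside 0.03 for all genes. A fit of members with Slc6a2 alone tested 13 of these genes, with a median of 0.35, against 0.80 for the same 13 in all members. At an unadjusted p below 0.05 the list had 11 higher and 0 lower genes, beside 5.69% and 4.15% of all genes. With the sequencing run as a block 6 of the 19 rose, beside 0.405% of all genes. They were Col4a2, Sparcl1, Fn1, Col18a1, Hspg2 and Lama4. Summed over the list, metastasis replicates 5 and 6 had 10520 and 13451 CPM, while replicate 4 with 3793 CPM and replicates 1-3 with 3227 CPM were inside the lung range of 2394 to 4385 CPM. Of the 19 genes, 12 were above the non-endothelial cells in all 3 metastasis libraries and 1 was below. The share of all genes was not taken for this comparison, here or for the lists below.

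Col4a2, a chain of type IV collagen, was 442, 1158 and 1421 CPM in metastasis members and 213, 192, 117 and 71.7 CPM in lung members. The 3 fitted metastasis libraries lie above all lung libraries, while replicates 1-3 had 175 CPM (7 UMIs), inside the lung range. The log2 fold change was 2.85 (SE 0.48, adjusted p = 0.0384 by edgeR). The call was lost without any 1 library other than metastasis replicate 4, with adjusted p of 0.0791 to 0.279, and with replicates 1-3 in the fit (0.138).

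Sparcl1, a secreted matricellular relative of Sparc, was 108, 675 and 793 CPM in metastasis members and 61.5, 49.8, 16.8 and 17.2 CPM in lung members. The fitted libraries do not overlap, and replicates 1-3 had 425 CPM. The log2 fold change was 3.94 (SE 0.65), with an adjusted p of 0.0374 by edgeR and 4.94e-07 by DESeq2. Of the 7 fits without 1 library it was called in 1, without metastasis replicate 4 (adjusted p = 0.00125), and in the others the adjusted p was 0.0791 to 0.248.

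Col4a1, the partner chain of Col4a2, was 614, 1938 and 2420 CPM against 464, 512, 326 and 350 CPM, with a log2 fold change of 2.10 (SE 0.45), and 650.5 CPM in replicates 1-3. It passed DESeq2 (adjusted p = 0.000503) and not edgeR (adjusted p = 0.146), and passed edgeR without metastasis replicate 4 (adjusted p = 0.00213). The genes lie head to head on chromosome 8 of GRCm38, Col4a1 at 11198423 to 11312826 on the minus strand and Col4a2 at 11312805 to 11449287 on the plus strand, with first bases 21 bases apart.

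The laminin chain Lama4 had a log2 fold change of 2.62 and rose by DESeq2 and not in the main edgeR test (adjusted p = 0.0257 by DESeq2), as did Sparc, a collagen-binding protein, with 3.06 (adjusted p = 0.00234). Sparc was also abundant in the non-endothelial cells, at 130, 2719 and 875 CPM. Col18a1 had 3.80, the perlecan gene Hspg2 2.97, Fn1 3.84, Lamc1 1.63, Nid1 1.18 and the elastin gene Eln 1.40, none of which passed edgeR or DESeq2. With the sequencing run as a block the adjusted p by edgeR was 0.0206 for Col18a1, 0.0204 for Fn1, and 0.0479 for both Hspg2 and Lama4. Relative to summed UMIs, metastasis replicate 4 was inside the lung range for Lama4, Sparc, Col18a1, Hspg2 and Fn1 (2, 33, 1, 2 and 5 UMIs). Replicates 5 and 6 were above that range for each, with 92 and 32 UMIs of Lama4 and 380 and 179 of Fn1. Replicates 1-3 had 0 UMIs of Lama4, Col18a1 and Hspg2, 1 of Fn1 and 27 of Sparc, among 39971 UMIs.

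The type IV collagens are also given apart for members with and without Slc6a2. This split uses a gene of the rule and was made after the values were seen, so it is a description with no test. Members without Slc6a2 all held Vwf, while a few of those with it did not, and only 11 members with Slc6a2 stood behind each of metastasis replicates 4 and 6. In members without Slc6a2, Col4a1 was 683, 2513 and 3140 CPM in the metastasis and 484, 554, 365 and 340 CPM in lung. In members with Slc6a2 it was 384, 381 and 166 CPM against 442, 404, 292 and 357 CPM, so the tissues overlap there.

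The fitted log2 effects of the metastasis on Col4a1, with minus without Slc6a2, differed by -2.44, and by -2.43 where both classes held Vwf. Col4a2 without Slc6a2 had 453, 1482 and 1815 CPM in the metastasis and 261, 206, 140 and 99.1 CPM in lung. With Slc6a2 it had 406, 277 and 187 CPM against 161, 153, 96.4 and 53.0 CPM, so there, unlike for Col4a1, the tissues do not overlap. Its difference was -1.55 (-1.52 where both held Vwf). For Sparc the difference was -0.25 and for Gbp2 -0.10. Matrix genes went both ways, with Sparcl1 at 1.23 (0.91 where both held Vwf), Lama4 at -2.39 and Lamc1 at -1.60.

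**Figure D3:**
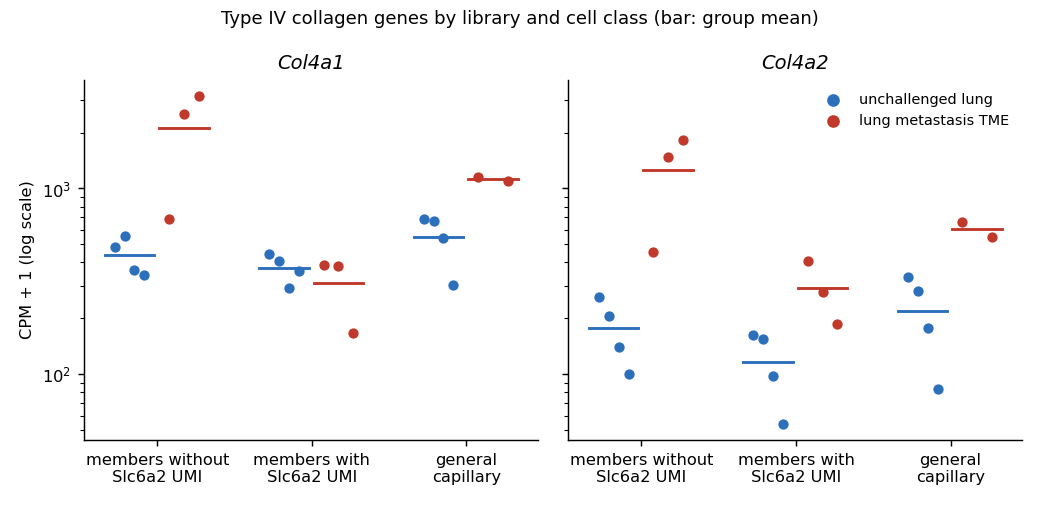
Col4a1 and Col4a2 in members without Slc6a2, members with Slc6a2 and general capillary cells, in CPM plus 1 on a log axis, with one point per library and bars for the means (red metastasis, blue unchallenged lung). Metastasis replicate 4 is left out for general capillary cells, of which it had 16. Col4a1 reaches 3140 CPM in metastasis members without Slc6a2 and at most 384 CPM in those with it.

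Interferon gamma induces guanylate-binding proteins and immunity-related GTPases, which act against intracellular pathogens, and raises antigen presentation by endothelium. Of 26 listed interferon response genes 22 were tested. None was called by edgeR and 6 fell by DESeq2, beside 0.27% of all genes. At an unadjusted p below 0.05, 11 were lower and 0 higher, beside 4.15% and 5.69% of all genes. The median of the list was -0.99. A fit of members with Slc6a2 alone tested 17 of these genes, with a median of -1.53, against -1.17 for the same 17 in all members. In 12 of the 22, the 3 fitted metastasis libraries lay below all lung libraries, beside 6.38% of all genes tested, and 0 lay above, beside 2.78%. With replicates 1-3 counted too, 4 of the 22 lay below all lung libraries, beside 3.44% of all genes. In that library the list summed to 5804 CPM, inside the lung range of 4369 to 5967 CPM, against 2118 to 3168 CPM in replicates 4, 5 and 6, and its 14 members gave only 39971 UMIs. The same 14 members held 48685 CPM of genes of alveolar type II cells, and members of the other libraries 9.83 to 3242.5 CPM. The part of RNA from other cells in the values of replicates 1-3 was not tested. In the 3 metastasis libraries, 9 of the 22 were higher in members than in the non-endothelial cells, 1 was lower and 12 were mixed.

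Gbp2, a guanylate-binding protein, was 29.5, 67.0 and 55.2 CPM in metastasis members and 201, 154, 257 and 189 CPM in lung members. Replicates 1-3 had 225 CPM (9 UMIs), at the lung level. The log2 fold change of the fitted libraries was -1.82 (SE 0.36), with an adjusted p of 0.00205 by DESeq2 and 0.108 by edgeR, and 0.329 by edgeR with replicates 1-3 in the fit. It was low in members with Slc6a2 (0, 86.7 and 41.5 CPM against 199, 192, 268 and 188 CPM) and in those without (38.3, 59.7 and 59.6 CPM against 203, 139, 246 and 191 CPM). Irgm1, an immunity-related GTPase, was 34.4, 21.8 and 35.1 CPM against 110, 76.0, 90.9 and 97.5 CPM, and 25.0 CPM in replicates 1-3, with a log2 fold change of -1.60 (SE 0.32) and an adjusted p of 0.0257 by DESeq2 and 0.108 by edgeR. Both passed edgeR without metastasis replicate 4 (adjusted p = 0.0413 for Gbp2 and 0.0361 for Irgm1). With the sequencing run as a block the adjusted p by edgeR was 0.0403 for Gbp2 and 0.146 for Irgm1, and with replicates 1-3 added 0.17 and 0.093. Gbp2 was the 1 gene of the list called with the run as a block, beside 0.0491% of all genes that fell.

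Igtp, another such GTPase, was 19.7, 39.0 and 50.2 CPM against 164, 71.3, 205 and 106 CPM and fell by DESeq2 alone (log2 fold change -1.80, adjusted p = 0.041), with 150 CPM in replicates 1-3. Irgm2 (-1.78, adjusted p = 0.0429 by DESeq2) shares much sequence with Igtp, so how their reads divide is uncertain. Gbp3 fell by DESeq2 (-1.90, adjusted p = 0.041), and so did Gbp4 (-1.76, adjusted p = 0.0497).

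The interferon-stimulated response element is bound by interferon regulatory factors. Its letters GAAA, any 2 bases and GAAA again, searched on both strands in the 250 bases before each RefSeq gene start, occur in 13 of the 19 interferon genes of the list that have a window, or 61.9% of their 21 windows, and in 2.98% of all 32851 windows. The windows of Gbp2, Gbp3, Igtp and Irgm1 are printed because these genes are described above. They are from the RefSeq annotation of GRCm38.p6, at chr3:142620413-142620662 (plus strand), chr3:142559794-142560043 (plus), chr11:58199306-58199555 (plus) and chr11:48871421-48871670 (minus), 5′ to 3′ on the gene's strand, with the matched letters on either strand in capitals. A match is a description and not a site.
Gbp2: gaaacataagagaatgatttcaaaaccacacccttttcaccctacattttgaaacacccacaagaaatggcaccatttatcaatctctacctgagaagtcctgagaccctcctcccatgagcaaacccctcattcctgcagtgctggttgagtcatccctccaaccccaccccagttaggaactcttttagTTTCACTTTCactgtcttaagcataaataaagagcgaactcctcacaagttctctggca
Gbp3: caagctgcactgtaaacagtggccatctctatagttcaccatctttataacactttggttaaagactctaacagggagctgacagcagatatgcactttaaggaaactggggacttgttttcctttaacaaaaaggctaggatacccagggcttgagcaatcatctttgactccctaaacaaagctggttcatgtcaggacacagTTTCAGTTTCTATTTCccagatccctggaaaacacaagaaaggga
Igtp: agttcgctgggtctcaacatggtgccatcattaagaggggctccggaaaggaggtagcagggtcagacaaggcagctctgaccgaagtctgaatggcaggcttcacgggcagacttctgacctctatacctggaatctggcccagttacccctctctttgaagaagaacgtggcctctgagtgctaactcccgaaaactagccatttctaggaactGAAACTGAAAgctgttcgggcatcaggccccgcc
Irgm1: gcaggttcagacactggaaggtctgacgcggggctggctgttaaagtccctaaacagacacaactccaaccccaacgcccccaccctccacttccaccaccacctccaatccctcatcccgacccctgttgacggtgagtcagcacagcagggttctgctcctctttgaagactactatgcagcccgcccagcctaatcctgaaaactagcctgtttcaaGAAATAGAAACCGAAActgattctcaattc

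Of 15 class I antigen presentation genes, all tested, none was called by edgeR and 1 fell by DESeq2, beside 0.27% of all genes. At an unadjusted p below 0.05, 7 were lower and 0 higher, beside 4.15% and 5.69% of all genes, and the list median was -0.76. The 3 fitted metastasis libraries lay below all lung libraries in 8 of the 15, beside 6.38% of all genes, and in 0 with replicates 1-3 counted, beside 3.44%. Psmb9, a subunit of the immunoproteasome, was 73.7, 88.8 and 75.3 CPM against 201, 232, 206 and 172 CPM and fell by DESeq2 (log2 fold change -1.25, adjusted p = 0.0204, 0.161 by edgeR). Replicates 1-3 had 350 CPM (14 UMIs), above every lung library, and with it in the fit the adjusted p by edgeR was 0.606. B2m, the light chain of class I molecules, was 1808, 869 and 788 CPM against 2415, 2211, 2458 and 2322 CPM (-0.97, not called), and 2627 CPM in replicates 1-3. The response element letters were found in 3 of the 13 class I genes with a window. Of 7 class II genes none was called by edgeR or DESeq2. At an unadjusted p below 0.05, 5 were lower and 0 higher, beside 4.15% and 5.69% of all genes. The median was -1.09, lay between -1.47 and -0.59 without 1 library, and was -0.66 with the sequencing run as a block. The 3 fitted metastasis libraries lay below all lung libraries in 3 of the 7, beside 6.38% of all genes, and in 1 with replicates 1-3 counted, beside 3.44%. H2-Aa had -1.44 and H2-Ab1 -1.09. Class II genes are also carried by leukocytes, whose RNA was highest in the members of lung replicate 6, where macrophage genes summed to 2629 CPM and neutrophil genes to 2798 CPM. The class II median was -1.20 without lung replicate 6 and -0.59 without lung replicate 1. The part of leukocyte RNA in these values was not tested.

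Hypoxia-inducible factor raises glucose uptake and glycolysis. Of 18 listed genes 15 were tested, 0 were called by edgeR and 5 rose by DESeq2, beside 0.713% of all genes. At an unadjusted p below 0.05, 12 were higher and 0 lower, beside 5.69% and 4.15% of all genes, and the median was 1.32. The list summed to 2176, 4981 and 2761 CPM in metastasis replicates 4, 5 and 6 and to 1166 to 1799 CPM in lung, and to 1601 CPM in replicates 1-3. Pkm, a pyruvate kinase, was 138, 834 and 377 CPM against 125, 110, 133 and 97.5 CPM (log2 fold change 2.09, adjusted p = 0.0095 by DESeq2 and 0.18 by edgeR), and 50.0 CPM in replicates 1-3. Pgk1 (2.22, adjusted p = 0.0183), Ldha (1.73, adjusted p = 0.0204), Gapdh (1.70, adjusted p = 0.0342) and Eno1 (1.97, adjusted p = 0.0367) also rose by DESeq2. The glucose transporter Slc2a1 had 1.86 and was not called.

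These genes were also high in the non-endothelial cells of the metastasis libraries, where Pkm had 277, 1283 and 862 CPM and Gapdh 443, 1497 and 1205 CPM. Of the 15, 7 were lower in members than in those cells in all 3 libraries and 2 were higher. The part of RNA from melanoma cells in them was not tested. The core letters of the hypoxia response element, ACGTG on either strand, were found in 11 of 17 genes with a window, 48.1% of their 27 windows and 16.6% of all windows. Of 21 genes of angiogenic activation 16 were tested, none was called by edgeR and 2 rose by DESeq2, beside 0.713% of all genes. At an unadjusted p below 0.05, 6 were higher and 1 lower, beside 5.69% and 4.15% of all genes. The median of the 16 was 0.55. With at least 3 supporting genes it was 0.87 over 14 of them, against 0.43 for the same 14 in all members. The 2 genes were the netrin receptor Unc5b (1.74, adjusted p = 0.0415) and Trp53i11 (2.50, adjusted p = 0.0261). Angpt2, a Tie2 ligand released by activated endothelium, had 1.53 and was not called.

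**Figure D4:**
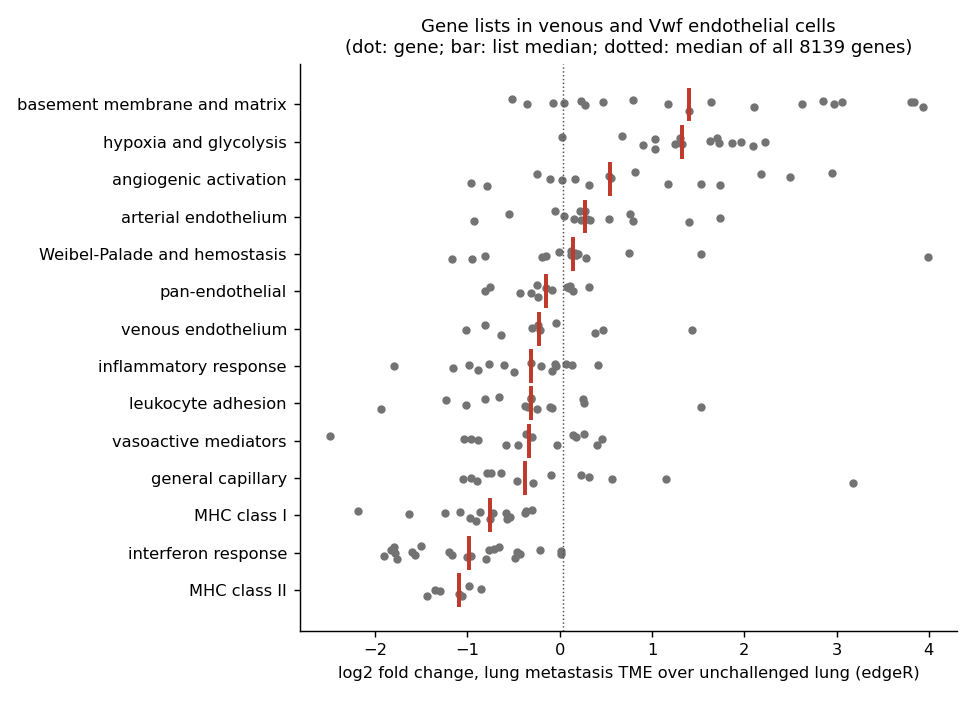
Log2 fold changes (edgeR, metastasis over lung) of the tested genes of 14 lists. Each dot is a gene, the bar is the list's median and the dotted line the median of all 8139 genes. Interferon response (median -0.99) lies to the left, and basement membrane (1.40) and hypoxia and glycolysis (1.32) to the right.

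Few genes of venous and hemostatic function passed a test. Of 10 tested venous genes of 12 listed, 0 were called by edgeR or DESeq2, and the median was -0.22. At an unadjusted p below 0.05, 1 was higher and 0 lower, beside 5.69% and 4.15% of all genes. Nr2f2 had a log2 fold change of -0.24. Of 16 tested Weibel-Palade and hemostasis genes of 23 listed, 0 were called by edgeR, and the list median was 0.14. By DESeq2 1 rose, beside 0.713% of all genes. This gene was Cd63 (3.99, adjusted p = 0.0478), a tetraspanin of storage granules and also of melanosomes. The thrombin receptor thrombomodulin (Thbd) had -1.17 and was not called. Vwf, a gene of the rule, had 0.10.

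Of 15 tested leukocyte adhesion genes of 20 listed 0 were called by edgeR or DESeq2, and the median was -0.32, with Vcam1 at -1.02, Selp at -0.81 and Icam1 at -0.31. At an unadjusted p below 0.05 there were 1 higher and 1 lower, beside 5.69% and 4.15% of all genes. Of 14 tested vasoactive genes of 21 listed none was called, and the median was -0.34. At an unadjusted p below 0.05, 3 were lower and 0 higher, beside 4.15% and 5.69% of all genes. The natriuretic peptide receptor Npr1 had -1.04 and the monoamine oxidase Maob -2.49. Of 15 tested arterial genes of 16 listed 1 rose by DESeq2 (Unc5b, above), beside 0.713% of all genes. The list median was 0.27, and lay between 0.02 and 0.40 without 1 library. The 13 pan-endothelial genes had a median of -0.14, with none called by edgeR or DESeq2.

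Of the genes that chose the members, Lrg1, a secreted glycoprotein that modulates TGF-beta signaling, was 668, 488 and 818 CPM in metastasis members and 455, 129, 145 and 172 CPM in lung members. Replicates 1-3 had 10 UMIs of Lrg1 among 39971, which is inside the lung range. As the rule used this gene, its values are a description. In members with Slc6a2 it was 1666, 1011 and 1887 CPM against 688, 297, 213 and 231 CPM, and without it 370, 294 and 477 CPM against 243, 65.0, 68.4 and 84.9 CPM. Igfbp3 was 0, 411 and 658 CPM against 0, 1.34, 0 and 25.8 CPM, and in the metastasis nearly all of it was in members without Slc6a2 (0, 561 and 868 CPM, against 0, 5.78 and 0 CPM with it). In lung replicate 6 it was 33.7 CPM in members with Slc6a2 and 14.2 CPM without. Prss23 and Slc6a2 had log2 fold changes of -1.21 and -0.89, and Emcn of -0.04. With Lrg1 left out of the rule 15 genes were called, and with Igfbp3 left out 14. Leaving out Lrg1 kept 275 of 315 metastasis members and 1000 of 1035 lung members. Leaving out Igfbp3 kept 291 and 1032, so both genes admitted a larger share of the metastasis members.

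The metastasis effect in members was compared with that in general capillary cells, taken with Gpihbp1 or Kit, without Vwf and Slc6a2, and with at least 20 cells in a library. This used metastasis replicates 5 and 6 and the 4 lung libraries, with the library as block. Of 9848 genes, 17 differed by edgeR (0.173%), 4 with a higher effect in members (0.0406%) and 13 with a lower one (0.132%). DESeq2 called 6, all among them. The 4 higher were Col4a2 (1.59, SE 0.24, adjusted p = 0.00126), Col4a1 (1.35, SE 0.24, adjusted p = 0.00875), Sparc (1.13, adjusted p = 0.0273) and the arrestin domain gene Arrdc3 (2.61, adjusted p = 0.00565). Over whole lists the median difference was -0.25 for basement membrane and matrix, -0.12 for interferon response and -0.36 for class I. It was -0.47 for class II, -0.19 for hypoxia and glycolysis and 1.02 for angiogenic activation, beside -0.02 for all genes. Of 22 matrix genes, 3 were among the higher and 2 among the lower.

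General capillary cells also had more type IV collagen RNA in both metastasis libraries than in any lung library. Col4a1 was 1152 and 1092 CPM in metastasis replicates 5 and 6 and 683, 667, 541 and 300 CPM in lung, and Col4a2 was 662 and 546 CPM against 332, 282, 177 and 82.5 CPM. The Col4a2 call held without any 1 lung library, with an adjusted p of at most 0.021. Without metastasis replicate 5 or 6 only the other of them is left for the metastasis, so no calls are given for those fits. It was lost with replicates 5 and 6 alone (0.0937), with at least 10 cells per class (0.0788) and with the replicate block (0.088), and kept with the sequencing run as a block (0.0437). The Col4a1 call did not hold without lung replicate 4 (adjusted p = 0.0642). It was also lost with replicates 5 and 6 alone (0.276), with at least 10 cells per class (0.634), with the replicate block (0.193) and with the run block (0.167), and was kept by DESeq2 (0.0021).

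Sparc was lost without lung replicate 1 (adjusted p = 0.164) or 4 (0.192). With replicates 5 and 6 alone its adjusted p was 0.904, with at least 10 cells per class 0.857, with the replicate block 0.966 and with the run block 0.848, and DESeq2 called it (0.011). Arrdc3 was 73.2 and 115 CPM in metastasis members against 16.5, 30.9, 42.7 and 65.9 CPM in lung members. In general capillary cells it was 13.7 and 55.5 CPM against 47.4, 42.2, 67.2 and 101 CPM, and it was lost by DESeq2 (adjusted p = 0.0661).

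In general capillary cells, all 13 genes with a lower effect in members were higher in metastasis replicate 5 than in any lung library, and in metastasis replicate 6 Dkk2, Mmp16 and Rbp7 had no UMI. Cpe, a carboxypeptidase of prohormone processing that veins express, had 529 and 231 CPM in metastasis general capillary cells and no UMI in the lung ones. In members it was 494 and 537 CPM against 144, 37.0, 259 and 152 CPM (adjusted p of the difference 4.27e-07). Fbln5, an elastic fiber protein, was 115 and 18.5 CPM in metastasis general capillary cells and 3.51, 1.86, 8.25 and 0 CPM in lung ones. In members it was 193 and 256 CPM against 234, 106, 158 and 158 CPM (difference of the log2 effects -4.10, adjusted p = 0.000485). Fabp4, a fatty acid carrier, was 398 and 130 CPM in metastasis general capillary cells against 5.27, 1.86, 3.54 and 45.0 CPM. Others were Mgp, Mmp2, Cdh13, Cd81, Emp3, Cryab, Dkk2, Rbp7 and Mmp16.

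Without metastasis replicate 5 only replicate 6 is left for the metastasis in this comparison, so no calls are given for that fit. The fitted differences of Mmp16 and Rbp7 turned to 0.8628 and 0.2018 there. In metastasis replicate 5 melanoma genes summed to 7757 CPM in members and 12809 CPM in general capillary cells. The part of melanoma RNA in these differences was not tested.

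**Figure D5:**
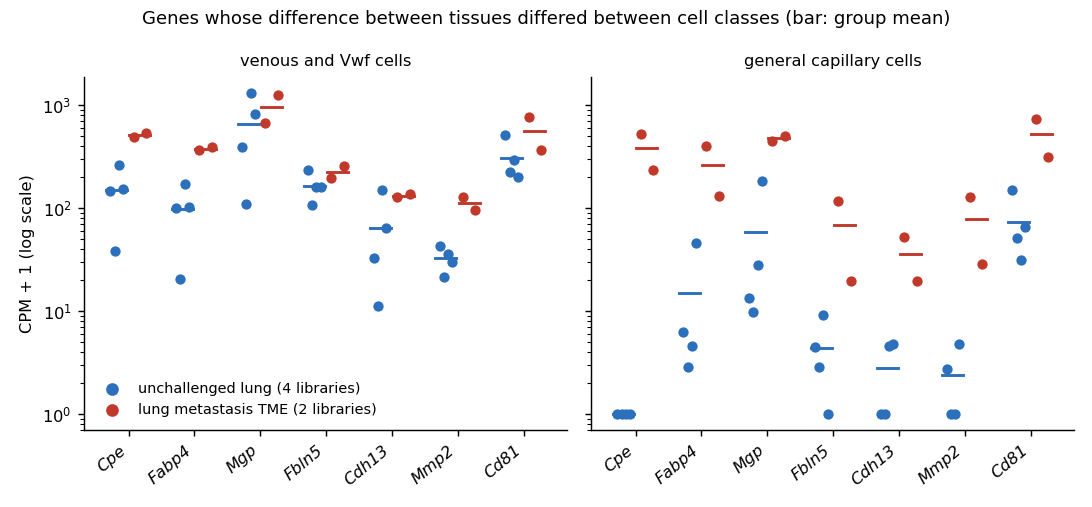
Expression of 7 genes in members and in general capillary cells, in CPM plus 1 on a log axis, with one point per library and bars for the means (red metastasis replicates 5 and 6, blue the 4 lung libraries). Cpe has 529 and 231 CPM in metastasis general capillary cells and none in those of lung, and is present in the members of both tissues.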

How the data were processed

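Single cells of unchallenged lung and of the lung metastasis TME were measured by droplet sequencing. The authors deposited UMI counts of 32285 genes per cell, made with Cell Ranger 6.1.1 on GRCm38 (mm10) and filtered in Seurat 3.2.2 by the submitters' processing notes and the study's methods. Cells above the limits the authors set on mitochondrial and ribosomal shares and outside those on detected genes had been removed. A deposited table of normalized values was not used. Of 24 library names 11 were used and 13 were not, and names with identical barcodes and counts were taken once (6202 repeated barcodes in these tissues). Doublets were not called, and cells with UMIs of Ptprc or Col1a2 were left out.

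Members and general capillary cells were chosen by the rules given in the report. The members, gene lists and tests were chosen with earlier results of these data known. Libraries with at least 20 cells of a class were summed over them and fitted with edgeR 4.0.16 (filterByExpr, TMM scaling, quasi-likelihood F test, Benjamini-Hochberg over all genes tested, called at an adjusted p below 0.05) in R 4.3.3 with limma 3.58.1, with DESeq2 1.42.0 as the alternative, where 1271 genes had no adjusted p. All folds are metastasis over lung. The difference from general capillary cells was fitted as an interaction with the library as block. Per-gene values are CPM of the summed counts. Named genes are those of the rule and of the lists, and per comparison the 10 called genes that changed most, both directions pooled. Those 10 were taken among genes that averaged 20 CPM or more and, between tissues, did not overlap. A few genes are not reported here, so names can be fewer than the count they belong to. Other genes named were called in a comparison or chosen after their values were seen.

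Exact binomial intervals at 95% and the floor of 3 counts cover counting error only. The exact permutation test of 3 against 4 libraries cannot give a two-sided p below 0.0571, so none was used. By the library names no mouse gave more than 1 library, metastasis replicates 1-3 were summed from 2 mice, and metastasis replicates 5 and 6 stand under 2 mouse numbers each, so that their animals are uncertain. Replicates 5 and 6 of both tissues were in sequencing run 3, both replicates 4 in run 2, and lung replicate 1 and metastasis replicates 1-3 in run 1. Only the run of replicates 5 and 6 could be fitted alone, and a fit with the run as a block was added after the data were seen. On data simulated from the 8139 genes of the tissue comparison, edgeR found 4% of changes of 1 and 61% of changes of 2 on the log2 scale, and DESeq2 9% and 62%, with 1 and 10 wrong calls. For the comparison with general capillary cells (9848 genes) edgeR found 20% and 76%, with 10 wrong calls. Gene positions are from GENCODE vM21 and promoter windows from RefSeq on GRCm38.p6. Python 3.11.15, numpy 2.4.6, pandas 2.3.3, scipy 1.17.1 and matplotlib 3.10.9 were used.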

Additional observations from a re-analysis of the deposited data

Results flagged for a closer look

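In 6 of 63 groups of 4 lung libraries looked at, 1 library stood far from the other 3, measured as its gap to the nearest divided by the range and above Dixon's critical value for 4 samples. Chance gives about 1 in 20 such groups. These were Syt4 (1.0, 1 UMI in replicate 4 alone), Irgm2 (0.878), Col18a1 (0.86), Inhbb (0.858), Lrg1 (0.868, 455 CPM in replicate 1) and Igfbp3 (0.948, 25.8 CPM in replicate 6).

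The metastasis effect differed between members and general capillary cells by the edgeR interaction for 17 genes. For those named here, the log2 difference (members minus general capillary cells) was 1.5876 for Col4a2, 1.3472 for Col4a1, 1.1307 for Sparc and 2.6054 for Arrdc3. It was -1.7368 for Emp3, -2.1176 for Cd81, -2.5658 for Cryab, -3.0666 for Mgp, -3.2351 for Fabp4, -3.8098 for Cdh13, -4.0996 for Fbln5 and -4.9649 for Mmp2. For Mmp16 (-5.2236), Rbp7 (-6.7359), Dkk2 (-7.9847) and Cpe (-9.1634) most or all lung general capillary libraries held no UMI, so the fitted value depends on the prior count and is no bound.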

How the results depend on the processing

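The 17 genes called between the tissues became 80 with DESeq2, 239 with no low-count filter, 11 with at least 10 members per library (metastasis replicates 1-3 added), 206 with replicates 5 and 6 alone, 37 with the sequencing run as a block, and 3 to 239 without 1 library. The 17 genes that differed from general capillary cells became 6 with DESeq2, 44 with no filter and 11 to 30 without 1 lung library. They were 22 with the run block (13 of the 17). Ankrd37, Dct and Syt4 were called in every alternative in which they were tested. In the members with Slc6a2 alone, fitted where a library had at least 10, Col4a1 turned to -0.1312. Without metastasis replicate 5, Mmp16 turned to 0.8628 and Rbp7 to 0.2018, and without 1 library they lay between -6.793 and 0.8628 and between -7.177 and 0.2018. The cause was not tested. The lung share of members was 11.6644% after thinning to 1000 UMIs. Of the genes of the tissue comparison 1083 results kept their side of the threshold, 113 gained it and 81 lost it, over all alternatives. These were 174, 0 and 59 against general capillary cells. Set against the same genes in the main test, list medians moved by more than the spread between libraries in 5 cases, in members with Slc6a2 alone to -1.53 (interferon, 17 genes) and -0.06 (leukocyte adhesion, 12 genes), with replicates 5 and 6 alone to -1.08 (class I) and 1.83 (hypoxia and glycolysis) and with at least 3 supporting genes to 0.87 (angiogenic, 14 genes). RLE scaling left 17 and 17 genes. The alternative of members without any UMI of other cell types was not run, since no metastasis library keeps 20 such cells.

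Same-numbered libraries of the tissues are from different mice. The correlation of their deviations from the group means was -0.01 for 1-3 and 1, 0.25 for 4, -0.13 for 5 and 0.13 for 6, so the numbers were not taken to pair them. With the replicate block 35 genes were called between the tissues (15 of the 17) and 18 against general capillary cells (10 of the 17). Lung replicate 6 had the shallowest members and metastasis replicates 1-3 too few for the fit.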

Other observations

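Other gene groups were measured in the same members. Rgcc, a gene of general capillary cells, was 29.5, 139 and 30.1 CPM in metastasis replicates 4, 5 and 6 and 18.0, 7.40, 4.20 and 8.60 CPM in lung replicates 1, 4, 5 and 6, and rose by DESeq2 (adjusted p = 0.0028) and not by edgeR (adjusted p = 0.108). Of the 14 general capillary genes it was the only one called by DESeq2, beside 0.713% of all genes that rose, and the list median was -0.37. Ier3, an immediate early gene, was 359, 288 and 251 CPM against 189, 153, 157 and 118 CPM and rose by DESeq2 (adjusted p = 0.0367, 0.261 by edgeR). It rose alone among 21 genes of the immediate early and heat shock list, beside 0.713% of all genes, and the list median was -0.33. The phosphatase gene Dusp1 was 118, 76.3 and 161 CPM against 345, 214, 240 and 473 CPM and passed neither test.

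The proliferation genes Top2a and Mki67 are among 21 cell cycle genes, of which 8 were tested and none was called. Top2a was 0, 73.2 and 110 CPM in the metastasis and 3.00, 2.02, 0.699 and 0 CPM in lung, and the filter on low counts left it out of the test. Among the lists with no call by either tool were inflammatory response (15 of 24 tested, median -0.31), Notch and angiopoietin signaling (12 of 13, median 0.20), TGF-beta and BMP signaling (16 of 17, median -0.21) and shear stress response (8 of 10, median -0.21).

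RNA of other lung cells was uneven between libraries. The 14 members of metastasis replicates 1-3 held 48685 CPM of genes of alveolar type II cells, and members of the other libraries 9.83 to 3242.5 CPM. Club cell genes were highest in metastasis replicate 5 at 11065 CPM. No gene of these epithelial lists was called. Fibroblast genes summed to at most 472 CPM, pericyte and smooth muscle genes to at most 299 CPM, and megakaryocyte and platelet genes to at most 17.2 CPM. Lyve1, which lymphatic endothelium also expresses, was 2152, 681 and 864 CPM in metastasis members and 2070, 2262, 1181 and 1164 CPM in lung members, while Prox1 had no UMI in lung members and 1 UMI in each of metastasis replicates 5 and 6.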
